A study of Homo sapiens with 6 samples.

Results

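Glutathione is the main small thiol antioxidant of the cell. The 9 genes described here include those that make it (GCLC, GCLM and GSS), recycle it (GSR) and use it against peroxides (GPX1 and GPX4). GGT5 and GGT1 break it down outside the cell, and GGT7 is a further member of their gamma-glutamyltransferase family. The 9 were chosen by name, from pathway knowledge together with the measured difference of GGT5 between the populations compared here. The differences of the 9 are therefore given as a description and not as tests. All 9 were among the 15024 genes of the deposited table, and all 9 were among the 14420 genes with enough signal to be fitted.

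All cells were of the line MDA-MB-231, which came from a human breast cancer of the triple-negative type. All 6 libraries came from Mll3-null cells (MLL3 is the histone methyltransferase encoded by KMT2C) kept for 14 days in 10 μM forskolin, which switches on adenylyl cyclase and so raises cAMP. Sorting by flow cytometry for CD104 (integrin beta-4) gave CD44+CD104high cells (n = 3, called CD104high) and CD44+CD104-/low cells (n = 3, called CD104low), which the study's design calls a hybrid epithelial and mesenchymal state and a mesenchymal state. No library without forskolin and none from wild-type cells was analysed here, and the labels do not say how many clones the null cells came from. The labels call the replicates biological and name no culture, day or batch, so the spread and the p-values given here are those between these samples. In bulk RNA of this kind, fewer cells of a type and less RNA per cell cannot be told apart.

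Between 49791498 and 60069719 recovered reads per library fell on the listed genes, and the 10 most abundant genes took 4.57% to 5.03% of them. ITGB4, which encodes CD104, was at 14508 to 19435 scaled read counts in CD104high and at 1333 to 2273 in CD104low, as the sort requires, and CD44 was at 22069.5 to 28210.4 over all 6 libraries. KMT2C still gave 3561 to 3952 in CD104high and 2095 to 2814 in CD104low (log2 difference 0.62, limma adjusted p = 0.0027), with no overlap. These values do not check the deletion, because the table has no value per exon. Of 16 marker genes listed for the line and for other cell types, 10 were in the table. Vimentin (VIM) was at 19871 to 23329, while the endothelial marker PECAM1 and the fibroblast marker DCN stayed at or below 14.6 and 11.2. The means of the epithelial markers differed in opposite directions, without overlap of the populations, and only the first passed the test: KRT18 was at 14549 to 18409 in CD104high and 12585 to 13189 in CD104low (log2 difference 0.34, limma adjusted p = 0.0122), and EPCAM at 554 to 673 and 695 to 813 (-0.32, limma adjusted p = 0.0531). PDGFRB and COL1A1, also listed as fibroblast markers, were not low as DCN was. PDGFRB was at 1767 to 2728 in CD104high and 861 to 1369 in CD104low (log2 difference 1.07, limma adjusted p = 0.00309). COL1A1 was at 929 to 1395 and 856 to 1012 (0.31, limma adjusted p = 0.117).

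Glutathione is built in 2 steps. Glutamate-cysteine ligase joins glutamate to cysteine, and is made of a catalytic subunit (GCLC) and a modifier subunit (GCLM) that raises its efficiency. Glutathione synthetase (GSS) then adds glycine. Glutathione peroxidases oxidise glutathione while reducing peroxides, and glutathione reductase (GSR) restores it with NADPH. GGT1 and GGT5 sit on the outer cell surface and split the gamma-glutamyl bond, so that the amino acids of glutathione can be taken up again. GGT5 is known for converting leukotriene C4 to leukotriene D4. Several of these genes, GCLM and GCLC above all, are textbook targets of the transcription factor NRF2, which binds the antioxidant response element.

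RefSeq promoter windows (GRCh38.p14, 250 bases before to 50 after an annotated start) were used for 6 of the 9 genes. These came to 9 windows in all, and GGT5, GSS and GSR were not searched. The stretches below are the 120 bases before the start of the ligase subunits, shown because GCLM and GCLC differed in how they were expressed. Also shown are stretches of GGT7 and GGT1, which both had higher means in CD104high, as GGT5 did. For GGT1 only the downstream start is shown, whose window held the core described next. They run 5′ to 3′ on the strand of the gene, and capitals mark the core of the antioxidant response element, searched as TGACNNNGC on both strands.

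GCLM: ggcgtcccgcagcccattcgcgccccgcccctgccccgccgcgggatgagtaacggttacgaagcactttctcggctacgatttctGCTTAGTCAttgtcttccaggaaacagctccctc
GCLC: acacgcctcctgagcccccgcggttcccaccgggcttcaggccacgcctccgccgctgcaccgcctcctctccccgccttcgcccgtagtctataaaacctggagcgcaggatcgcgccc
GGT7: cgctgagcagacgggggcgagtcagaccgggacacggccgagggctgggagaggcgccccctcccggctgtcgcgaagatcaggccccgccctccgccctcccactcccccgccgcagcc
GGT1: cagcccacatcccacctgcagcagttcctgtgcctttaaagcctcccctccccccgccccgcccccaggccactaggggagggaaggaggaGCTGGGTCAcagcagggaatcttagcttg

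These stretches lie at chr1:93909431-93909550 (GCLM, minus strand), chr6:53545102-53545221 (GCLC, minus strand), chr20:34872857-34872976 (GGT7, minus strand) and chr22:24603073-24603192 (GGT1, plus strand). The core matched in 2 of the 9 windows, both times on the strand opposite to the gene: 34 to 26 bases before the start of GCLM, and 29 to 21 bases before the start of GGT1. The window at the upstream start of GGT1 held no match and is not shown. Nor are those of GPX4, which was also higher in CD104high, and of GPX1, without a match either. Of all 35116 promoter windows, 13.3% held the core. The cAMP response element TGACGTCA was in 1.85% of all windows and the AP-1 site TGANTCA in 7.71%, and neither was in any of the 9. The AP-1 letters can overlap the antioxidant core. A match is a run of letters and not a measured binding site, and no match says only that these letters are not in this window.

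The ligase subunits did not move together. GCLM was at 6478, 6288 and 7017 scaled read counts in replicates 1 to 3 of CD104high, and at 13445, 9267 and 11922 in CD104low. All 3 CD104high libraries lay below all 3 CD104low libraries, and the log2 difference was -0.79 (SE 0.12), or 1.73-fold lower in CD104high. GCLC was at 1264, 1386 and 1648 in CD104high and at 1543, 1396 and 1532 in CD104low. Here the populations overlapped, replicate 3 of CD104high being the highest library and replicate 1 the lowest. The GCLC difference of -0.06 (SE 0.11) was smaller than its error, and became 0.02 without replicate 1 of CD104high.

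Per kilobase of transcript, GCLM was the more abundant subunit in every library. The level of GCLM was 3.64 ± 0.35 times that of GCLC in CD104high and 6.05 ± 0.82 times in CD104low (SD, n = 3 each). The 3 ratios in CD104high, from 3.34 to 4.02, were all below the lowest in CD104low, 5.21. GSS, the second enzyme of synthesis, was at 9614, 9188 and 9491 in CD104high and at 10946, 10268 and 10590.1 in CD104low. These ranges did not overlap either, but the difference was small, at -0.17 (SE 0.06) on the log2 scale. GSS varied little within a population, with a coefficient of variation of 2.32% in CD104high and 3.2% in CD104low.

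**Figure D1:**
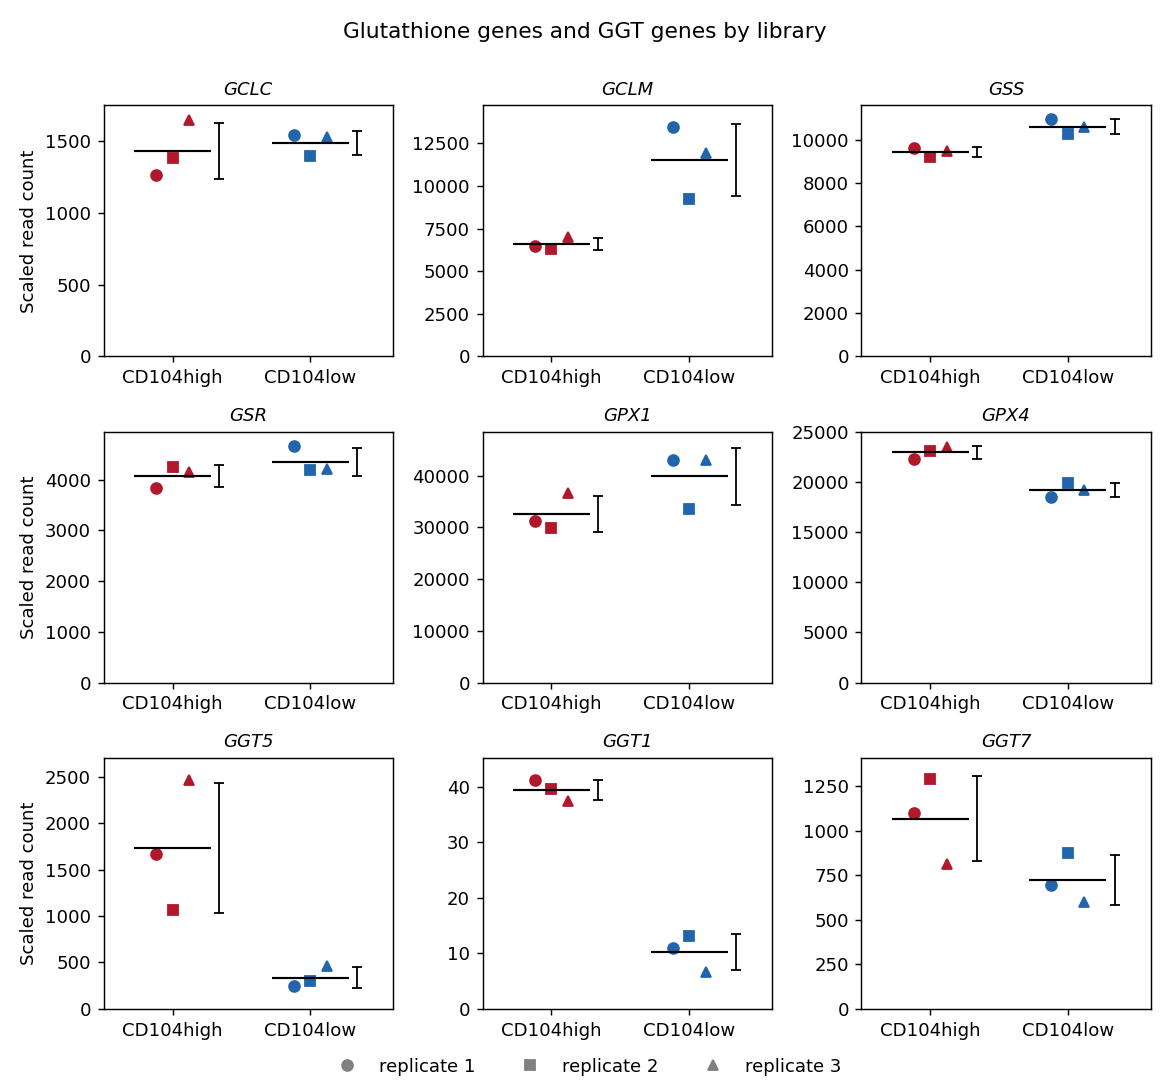
Scaled read count (vertical axes, from 0) of the 9 genes in each library; symbols are replicates, horizontal lines are means and bars are the SD over 3 libraries. GCLM is lower in all 3 CD104high libraries (6288 to 7017) than in CD104low (9267 to 13445), GGT5 is higher (1065 to 2462 against 241 to 462), and the libraries of GCLC, GSR, GPX1 and GGT7 overlap.

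Recycling and use of glutathione showed small differences. GSR was at 3829.7, 4249 and 4139 in CD104high and at 4663, 4178 and 4206 in CD104low, with overlapping populations and a log2 difference of -0.09 (SE 0.07). That value was -0.04 without replicate 1 of CD104low. GPX1, a peroxidase of the cytosol and a selenoprotein, was at 31255, 29984 and 36600.3 in CD104high and at 43069, 33536 and 43042 in CD104low. Replicate 2 of CD104low fell among the CD104high libraries, and the difference was -0.29 (SE 0.11). GPX4, the selenoprotein that reduces lipid peroxides in membranes and protects from ferroptosis, went the other way. It was at 22263, 23101 and 23469 in CD104high and at 18480.4, 19881 and 19232 in CD104low, with no overlap and a difference of 0.26 (SE 0.06).

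The relative level of these peroxidases therefore differed between the populations. Per kilobase of transcript, GPX1 was at 1.46 ± 0.14 times the level of GPX4 in CD104high and at 2.14 ± 0.36 times in CD104low (SD, n = 3 each). Library values ran from 1.34 to 1.60 in CD104high and from 1.74 to 2.40 in CD104low.

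The 3 GGT genes all had higher means in CD104high, with no overlap of the populations for GGT5 and GGT1. GGT5 was at 1673, 1065 and 2462 in replicates 1 to 3 of CD104high, and at 241, 299 and 462 in CD104low. The lowest CD104high library was thus well above the highest CD104low library, although the highest library of a population was 2.31 times the lowest in CD104high and 1.91 times in CD104low. The log2 difference was 2.34 (SE 0.31), or 5.07-fold on the log2(value + 1) scale, which was the 17th highest of the 14420 genes. It was 2.05 without replicate 3 of CD104high and 2.65 without replicate 2.

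GGT1, the family member best known for breaking down extracellular glutathione, was near the limit of detection. Its recovered reads were 45, 45 and 37 in CD104high and 11, 13 and 6 in CD104low, with exact 95% Poisson intervals (counting error only) of 32.8 to 60.2, the same again, and 26.1 to 51.0 against 5.49 to 19.7, 6.92 to 22.2 and 2.20 to 13.1. Its scaled mean was 39.5 ± 1.85 in CD104high against 10.3 ± 3.27 in the other population (SD, n = 3 each), a log2 difference of 1.88 (SE 0.34). GGT1 reached the minimum value of 10 in all 3 CD104high libraries and in 5 libraries in all, so it would have entered the fit through CD104high alone. Of the 31-base words in its annotated transcripts, 45.9% also occur in transcripts of other genes, chiefly GGT2, GGT3P and GGTLC2, so how many of these reads came from GGT1 itself is uncertain. GGT1 also overlaps SNRPD3 on the same strand and LRRC75B on the opposite strand.

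GGT7, a further member of the family, was at 1096, 1287 and 814 in CD104high and at 697, 874 and 599 in CD104low. Replicate 3 of CD104high lay below replicate 2 of CD104low, so the populations overlapped, and the difference was 0.55 (SE 0.19). GGT7 and GSS lie close together on chromosome 20, at 34844720 to 34872860 and 34928433 to 34956027 (GRCh38, both on the minus strand), and differed in opposite directions. GGT7 overlaps ACSS2 on the opposite strand, and whether strand was used in counting is not stated. Of the other members, GPX1 shared 22.3% of its 31-base words with its pseudogenes GPX1P1 and GPX1P2, while GGT5, GCLC, GCLM, GSS, GSR, GGT7 and GPX4 shared 8.66% or less with other genes.

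**Figure D2:**
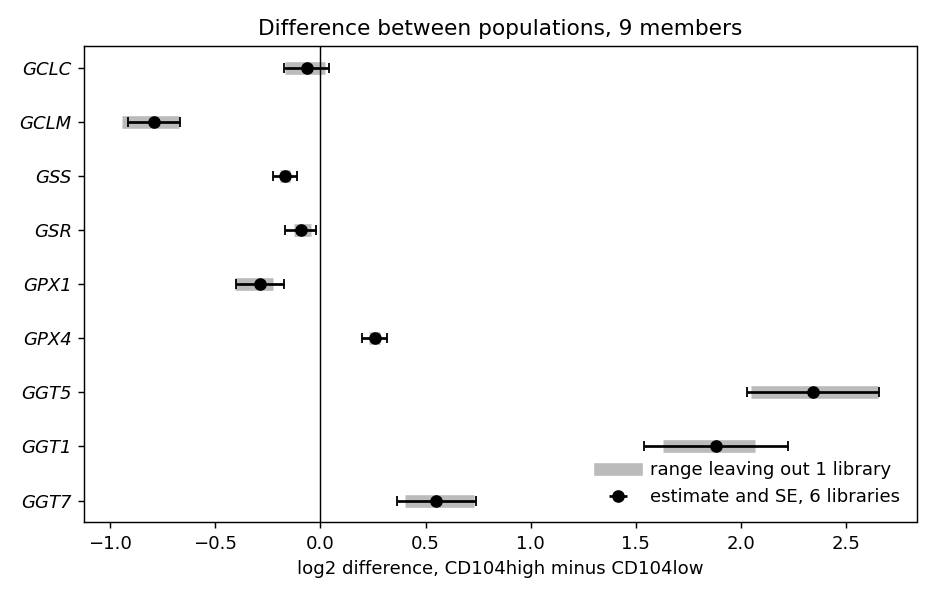
Log2 difference of CD104high minus CD104low (horizontal axis) for the 9 genes, with the estimate and its SE from 6 libraries (points and bars) and the range of the estimate when any 1 library is left out (grey). GGT5 (2.34) and GGT1 (1.88) lie far to the right, GCLM (-0.79) furthest to the left, and the grey range of GCLC spans 0.

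Summed per kilobase of transcript, the 3 GGT genes came to 849 ± 83.9 in CD104high, against 361 ± 43.5 in the other population (SD, n = 3 each). The sum is of transcript levels and does not measure the breakdown of glutathione. GGT5 made up 49.2%, 34.5% and 65.5% of that sum in replicates 1 to 3 of CD104high, and 18.3%, 18.2% and 33.4% in CD104low. The share in replicate 2 of CD104high was thus only just above that in replicate 3 of CD104low. GGT7 made up nearly all of the rest, since GGT1 came to only 15.0 ± 0.70 per kilobase in CD104high, against 3.92 ± 1.24 (SD, n = 3 each).

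In mean level per kilobase, the order of the 9 genes in CD104high was GPX1 (28335), GPX4 (19379), GSS (3124), GCLM (1358 ± 77.9), GSR (1276 ± 68.1), GGT5 (431 ± 174), GGT7 (403 ± 90.0), GCLC (376 ± 51.4) and GGT1 (15.0). GCLM and GSR differed by about their SDs (n = 3), and GGT5, GGT7 and GCLC by less than theirs. In CD104low the order was GPX1 (34650.1), GPX4 (16214), GSS (3512), GCLM (2377), GSR (1362), GCLC (391), GGT7 (274), GGT5 (83.1) and GGT1 (3.92), with each neighbour apart by more than the SDs of either. The peroxidases thus led both populations, and GGT5 stood level with GCLC and GGT7 in CD104high but below both in CD104low.

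**Figure D3:**
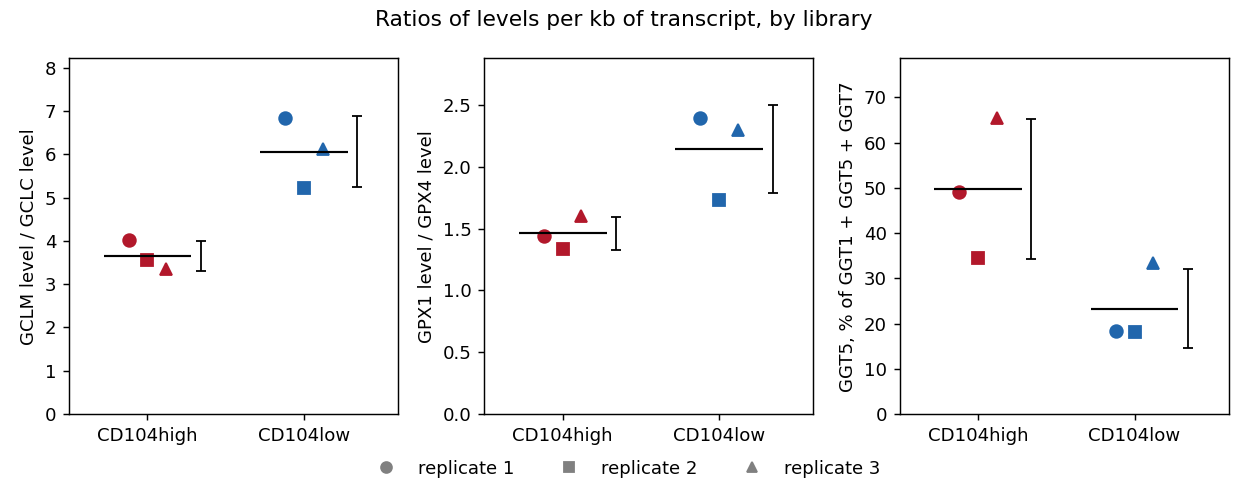
Ratios within each library of levels per kilobase of the longest annotated transcript: GCLM over GCLC, GPX1 over GPX4, and GGT5 as a percentage of GGT1, GGT5 and GGT7 together; symbols are replicates, lines means and bars the SD over 3 libraries. Both ratios are lower in all 3 CD104high libraries (3.34 to 4.02 and 1.34 to 1.60) than in CD104low (5.21 to 6.84 and 1.74 to 2.40), and the GGT5 share is higher (34.5% to 65.5% against 18.2% to 33.4%).

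Counted over the 9 members, 4 were past the threshold of adjusted p under 0.05 and higher in CD104high (GGT5, GGT1, GGT7 and GPX4), 2 were past it and lower (GCLM and GSS), and 3 were not past it (GCLC, GSR and GPX1). Over all 14420 genes tested, 43.4% were past it, 21.8% as higher and 21.6% as lower. The populations did not overlap in 5 of the 9 members and in 54.3% of all genes tested. Since the members were picked with this contrast known, nothing is read from these counts. The median log2 difference was -0.06 over the 9 members and 0.02 over all genes tested, and the median size was 0.29 against 0.30. In the authors' deposited table all 9 had the same sign as here, with 2.38 for GGT5 and -0.81 for GCLM.

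GGT5 (ENSG00000099998.17) lies at chr22:24219654-24245142 (GRCh38, minus strand). Its neighbours on the chromosome are SPECC1L, 25.7 kb away, and SUSD2, 30.5 kb away on the other side at chr22:24181259-24189110 on the plus strand. SUSD2, which encodes a membrane protein with a sushi domain, was at 263, 192 and 454 in CD104high and at 50.3, 56.6 and 78.6 in CD104low, so that every CD104high library was above every CD104low library, as for GGT5. Its log2 difference was 2.21 (SE 0.31, limma adjusted p = 0.00105). CABIN1, the next gene beyond SUSD2, was higher by only 0.47 (limma adjusted p = 0.00412), and by 0.11 once transcript length and GC content were corrected for (limma adjusted p = 0.216). GSTT2 (0.13), on the far side of CABIN1, and SPECC1L (0.17), ADORA2A (0.19) and ADORA2A-AS1 (0.72) on the other side of GGT5 did not pass, with limma adjusted p between 0.112 and 0.831. GSTT2, ADORA2A and ADORA2A-AS1 were at means of 10.96 to 20.7, where depth limits what can be seen, and ADORA2A-AS1 did pass in limma without the trend (adjusted p = 0.039).

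SUSD2 was, of the genes compared, also the one whose profile was most like that of GGT5. Likeness was measured as the root mean square distance between log2 profiles over the 6 libraries, each centred on its own mean, among 12503 genes with a mean of at least 50. SUSD2 came first at 0.13, followed by the hyaluronan-binding protein gene CEMIP (0.15), ANXA8L1 (0.18), the placental alkaline phosphatase gene ALPP (0.20) and SHANK2 (0.22), where the median gene was at 1.26. Pearson's r with GGT5 was 0.996 for SUSD2 and 0.987 to 0.995 for the other 4, a description over 6 libraries that also share the difference between the populations. In all 5 genes, as in GGT5, replicate 3 was the highest library of its population, and replicate 2 was the lowest of CD104high. Since the 5 were picked by likeness over these same 6 libraries, a shared order largely follows from the choice.

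**Figure D4:**
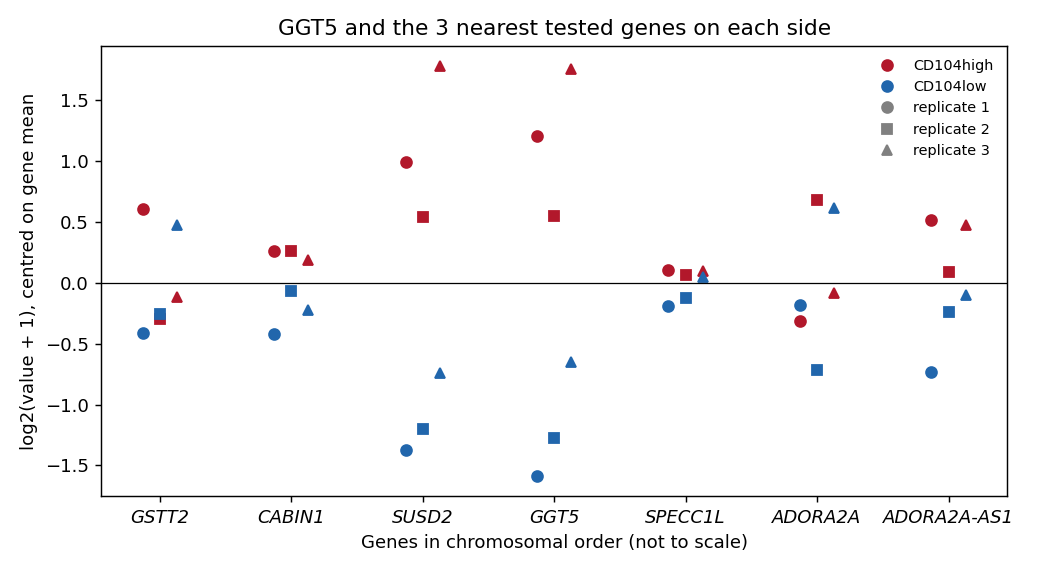
Expression of GGT5 and the 3 nearest tested genes on each side in chromosomal order, as log2(value + 1) centred on the mean of each gene (vertical axis); colours are populations and symbols replicates. SUSD2 and GGT5 (log2 differences 2.21 and 2.34) separate the populations by a wide margin and with the same order of libraries in CD104high, whereas the other 5 genes differ by 0.13 to 0.72.

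Around the members, 9 lists of other pathway genes held 109 tested genes, of which 24 rose and 30 fell in CD104high relative to CD104low, or 49.5% against the 43.4% of all genes. Without replicate 1 of CD104low 11 rose and 19 fell. The median log2 difference was 0.00 over these genes and 0.02 over all genes, and no list was tested as a whole. In the accounts that follow, p-values are from limma, adjusted over all genes tested.

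Of 7 genes of the gamma-glutamyl cycle and of glutathione breakdown, 2 rose and 3 fell (median -0.16). DPEP1, a surface dipeptidase that acts after gamma-glutamyltransferases on cysteinylglycine and leukotriene D4, rose with the GGT genes. It was at 202, 200.3 and 187 in CD104high and at 104, 127 and 55.0 in CD104low (log2 difference 1.12, SE 0.29, adjusted p = 0.0138). OPLAH, the oxoprolinase, rose by 0.42 (adjusted p = 0.0067), but with length and GC corrected its difference was 0.22 (adjusted p = 0.0951). Inside the cell, the glutathione-degrading cyclotransferase CHAC2 fell from 922 ± 191 to 453 ± 96.0 (SD, n = 3 each; adjusted p = 0.0033). The leucine aminopeptidase LAP3 fell by 0.47 (adjusted p = 0.0008) and the gamma-glutamylcyclotransferase GGCT, named to complete the count, by 0.64. The stress-induced CHAC1 was at 156 ± 13.6 and 173 ± 4.56 (SD, n = 3 each; adjusted p = 0.429).

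Among 7 genes of cysteinyl leukotriene synthesis, 2 rose and 1 fell (median 0.20). ALOX5, the 5-lipoxygenase, was at 162, 209 and 245 in CD104high and at 71.4, 100.1 and 60.6 in CD104low, 2.65-fold higher (adjusted p = 0.0022). ALOX5AP, its activating protein, was low throughout, at 43.9 ± 14.9 against 18.1 ± 7.72 (SD, n = 3 each; log2 difference 1.26, adjusted p = 0.0269). Its call was lost with quantile normalization (adjusted p = 0.0739) and without any of 4 libraries (replicate 2 or 3 of CD104high, replicate 1 or 2 of CD104low; adjusted p 0.0528 to 0.092). LTC4S, named after its value was seen, conjugates leukotriene A4 to glutathione and was at 19.6 ± 4.39 and 16.6 ± 3.40 (SD, n = 3 each; adjusted p = 0.635). At such values depth limits what can be seen. The transporter ABCC4 fell by 0.27 (adjusted p = 0.0234), a call that was lost without replicate 1 or 2 of CD104high or replicate 1 or 3 of CD104low (adjusted p 0.0635 to 0.0894).

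Supply of cysteine, glutamate and related amino acids gave 2 rises and 7 falls among 20 genes (median -0.12). SLC7A11, the cystine importer, was at 4219.7, 3081 and 4448 in CD104high and at 7904, 4905 and 7564 in CD104low (log2 difference -0.78, adjusted p = 0.012). Without replicate 1 of CD104low it was at -0.66 (adjusted p = 0.0571). The serine synthesis gene PSAT1 fell by 0.59 (adjusted p = 0.0005) and the mitochondrial aspartate aminotransferase GOT2 by 0.45. The rises were in glutamate transporters. SLC1A3 rose by 0.81 (adjusted p = 0.0015). The transporter SLC1A1, which also carries cysteine, was at 75.1, 104 and 249 in CD104high and at 30.2, 48.5 and 44.9 in CD104low (log2 difference 1.61, adjusted p = 0.0146). Its call was lost without replicate 1 of CD104low (adjusted p = 0.0641).

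NADPH, which GSR needs, is made by several routes, and of 17 genes listed around them 6 rose and 3 fell (median 0.08). A place in this list does not say that NADPH is a gene's main product. The folate enzymes ALDH1L1 and ALDH1L2 rose by 0.94 and 1.08 (adjusted p = 0.0041 and 0.0138), ALDH1L2 from a mean of only 43.9. The latter was not called without replicate 1 of CD104high or of CD104low (adjusted p = 0.0592 and 0.0579). MTHFD2, a mitochondrial folate enzyme, fell by 0.60 (adjusted p = 0.0037) and the malic enzyme ME2 by 0.54 (adjusted p = 0.0018).

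Other glutathione peroxidases and the glutaredoxins, which use glutathione to reduce disulfides or carry iron-sulfur clusters, gave 1 rise and 3 falls among 8 (median -0.23). GLRX3 fell by 0.87, from 8732 ± 1177 to 4768 ± 279 (SD, n = 3 each; adjusted p = 0.0005), and the mitochondrial GLRX5 by 0.48 (adjusted p = 0.0006). GLRX2, named to complete the count, fell by 0.37. GPX7 was at 0.48 (adjusted p = 0.0489), and this call was lost in 10 of the 17 alternatives (adjusted p 0.0506 to 0.235). Those were quantile normalization (0.27), TMM scaling, no filter, limma without the trend, edgeR, and leaving out any library but replicate 2 of CD104high. Of 17 glutathione transferases 5 rose and 3 fell (median 0.16). GSTM4 rose by 0.42 and GSTZ1 by 0.52, while GSTA4 fell by 0.54 and GSTO1 by 0.34. After correcting for length and GC, GSTA4 and GSTO1 were at -0.14 and -0.09 (adjusted p = 0.374 and 0.282). The GSTO1 call was also lost in limma without the trend (adjusted p = 0.0519) and without replicate 1 or 2 of CD104high or replicate 1 or 3 of CD104low (adjusted p 0.0548 to 0.0708). GSTP1, the most abundant of these transferases in scaled counts, was at 19099 ± 2051 and 21637 ± 2388 (SD, n = 3 each; adjusted p = 0.185), and it passed without replicate 2 of CD104low (log2 difference -0.27, adjusted p = 0.0394). Counting can divide reads between the similar GSTM genes, and between GSTT2 and its copy GSTT2B.

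The thioredoxin system works beside glutathione and gave 3 rises and 5 falls among 12 (median -0.03). Thioredoxin (TXN) was at 15774, 14527 and 20075 in CD104high and at 36975, 23050.1 and 33283 in CD104low (log2 difference -0.87, adjusted p = 0.0047), and the peroxiredoxin PRDX1 fell by 0.44 (adjusted p = 0.0011). TXNIP, the inhibitor of thioredoxin, rose by 0.94 (adjusted p = 0.0024) and the reductase TXNRD3 by 0.41. TXNRD1, the cytosolic reductase, was at 37089 ± 9516 and 34347 ± 5381 (SD, n = 3 each; adjusted p = 0.701). Selenoprotein synthesis, on which GPX1 and GPX4 depend, gave 1 rise and 3 falls among 9 (median 0.00). PSTK, a kinase of selenocysteine tRNA charging, fell by 0.74 and SEPHS1 by 0.25, while SECISBP2L rose by 0.37 and was not called without replicate 1 of CD104low (adjusted p = 0.0547).

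NRF2 and its regulators gave 2 rises and 2 falls among 12, or 33.3% (median -0.02). The NRF2 gene NFE2L2 was at 7601 ± 598 in CD104high, against 6744 ± 134 in the other population (SD, n = 3 each; log2 difference 0.17, adjusted p = 0.0765). KEAP1, which holds NRF2 down, was at 9581 ± 362 and 10659.8 ± 824 (log2 difference -0.15, adjusted p = 0.114). Both passed once length and GC were corrected for, at 0.24 (adjusted p = 0.0195) and -0.29 (adjusted p = 0.0185). NFE2L2 also passed with quantile normalization (adjusted p = 0.0265), and KEAP1 without replicate 2 of CD104low (adjusted p = 0.0356). BACH1, a repressor at antioxidant response elements, rose by 0.52 (adjusted p = 0.0014), and SQSTM1, a binder of KEAP1, by 0.32 (adjusted p = 0.0183), with 0.20 (adjusted p = 0.0937) after that correction. The SQSTM1 call was also lost in limma without the trend (adjusted p = 0.0565) and without replicate 3 of CD104low (adjusted p = 0.0666). RBX1 and CUL3, parts of the ligase that KEAP1 serves, fell by 0.47 and 0.21. CUL3 was not called in 8 of the 17 alternatives (adjusted p 0.0517 to 0.125).

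**Figure D5:**
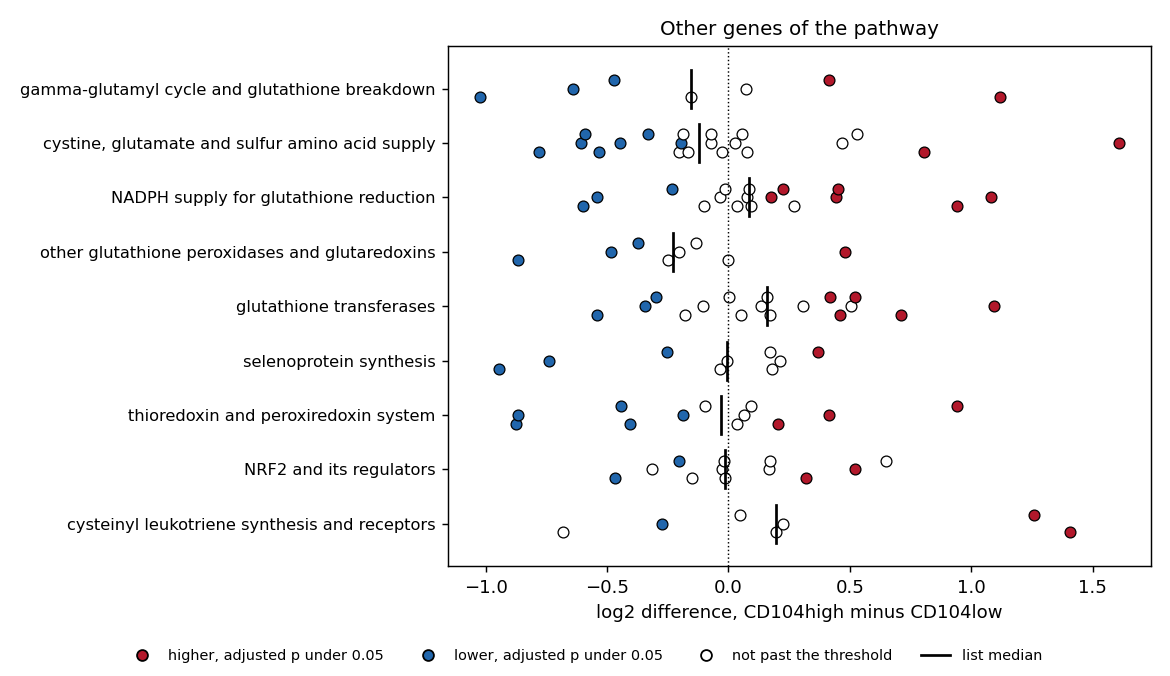
Log2 difference of CD104high minus CD104low (horizontal axis) for 109 genes in 9 lists around glutathione; each circle is a gene, filled where limma's adjusted p was under 0.05 (red higher, blue lower), and short lines are list medians. All 9 lists hold genes on both sides of 0, with list medians from -0.23 to 0.20.

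For several of these genes, given as examples, the same CD104low library lay closest to CD104high. In GCLM, GPX1, SLC7A11, CHAC2, TXN and GLRX3, replicate 2 of CD104low was the CD104low library nearest to CD104high. It was nearest too in the members GGT1, GGT7, GSS, GSR and GPX4. The same library had the highest ITGB4 of CD104low, at 2273 against 1492 and 1333. Without it the log2 difference of GCLM was -0.94 and that of GPX1 -0.41. In GCLM, GPX1, SLC7A11 and TXN, replicate 2 was also the lowest library of CD104high. In GGT5, SUSD2 and ALDH1L1, replicate 3 of CD104low was instead the one nearest to CD104high. The parts that an imperfect sort and the replicate may have in these values were not tested.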

How the data were processed

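RNA sequencing data of 6 libraries were used. Per the submitters' processing notes, FastQC, Salmon 1.3.0 and DESeq2 were used with the build GRCh38 (hg38). Nothing read here states the annotation release, filters or model. The authors deposited a scaled read signal per gene and library, and, per the file headers, a log2 fold change with its standard error and p-values (p-value and adjusted p-value). Within a library every signal was a whole multiple of 1 step (100% of values within 0.01), which gave the recovered reads. If Salmon made them, these are rounded estimates. On them edgeR called 6267 genes and DESeq2 6613.

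The main fit was limma 3.58.1 (R 4.3.3) with an intensity trend on log2(value + 1), which understates changes of low genes. Genes entered it with 10 or more in 3 or more samples. The model held only the population, with Benjamini-Hochberg adjustment over all 14420 genes and a threshold of 0.05. The fit was tested on simulated data. Those genes were independent, with the same spread beyond counting error and no replicate effect, so the simulation does not cover genes as variable as GGT5. Positions, overlaps and the longest transcript, its length and its GC content came from GENCODE 29, matched by identifier for 99.8% of genes. The longest transcript need not be the one expressed. Promoter windows are from RefSeq.

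The members, lists and rules were chosen with earlier results of these data known. Named genes were the 9 members, ITGB4, CD44, KMT2C, up to 2 genes in each direction per list by p, SLC7A11, CHAC1, GSTP1, TXNRD1, NFE2L2 and KEAP1, the 5 genes most like GGT5 and its 3 nearest tested genes on each side. One further gene of the rule is not reported here. Alternatives were a replicate block, TMM and quantile scaling, pseudocounts of 0.5 and 5, no filter and a filter of 50, limma without the trend, edgeR 4.0.16 and DESeq2 1.42.0 on recovered reads, a length and GC correction, and leaving out each library.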

Additional observations from a re-analysis of the deposited data

How the results depend on the processing

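Each result was recomputed under 17 alternatives. GGT5, GGT1, GGT7, GCLM, GSS, GSR, GPX1 and GPX4 kept the sign of their difference in each alternative that gave a value, and GCLC changed sign only without replicate 1 of CD104high. GGT1 had no value under the filter of 50. With quantile normalization the log2 differences of GGT1 and GSS were 1.55 and -0.11. With the length and GC correction those of GSS and GPX4 grew in size, to -0.24 and 0.31. The same correction moved GCLM by more, from -0.79 to -0.60. Among named pathway genes it moved CHAC2 from -1.02 to -0.53, TXN from -0.87 to -0.51 and PSAT1 from -0.59 to -0.37. Of the named pathway genes called lower, only ME2 and ABCC4 grew in size instead. The cause of these shifts was not tested. Leaving out 1 library at a time gave 4097 to 6390 called genes (2088 to 3192 higher, 2009 to 3198 lower), against 6257 with all 6 (3140 and 3117). Among pathway genes it gave 30 to 52 called (11 to 23 higher, 19 to 32 lower). Each lowest count was the one without replicate 1 of CD104low. A replicate block raised the counts to 7876 genes and 69 pathway genes, with NFE2L2, KEAP1 and GSTP1 among them (adjusted p = 0.0281, 0.0379 and 0.0281). Deviations of same-numbered libraries correlated at 0.08, 0.36 and 0.32, each library best with its own number, a hint from the data that the labels do not give. For the 50 other named genes, 50 alternative values lost a call, 9 gained one and none changed sign at a call. Depth limits GGT1, ALOX5AP, LTC4S, GSTT2, ADORA2A and ADORA2A-AS1.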
